A study of Homo sapiens with 18 samples.

Results

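The 10 genes described here encode secreted proteins of epithelial defense and of the acute-phase response: LCN2, SLPI, PI3, SAA1, SAA2, RNASE7, DEFB1, WFDC2, C3 and CFB. They were picked by name, with earlier results of these data known. They were found by symbol, and were joined between the tables by Entrez ID, among 19401 genes listed in any of 3 tables of RNA sequencing. RNA came from MCF10A, an immortalized, non-tumorigenic mammary epithelial line, and from clones in which CRISPR-Cas9 had disrupted CBFB or RUNX1. CBFB is the partner that stabilizes RUNX transcription factors on DNA, and RUNX1 is the DNA-binding factor itself. The comparisons were CBFB KO (3 libraries) against its own CBFB WT (3), and RUNX1 KO1 (4) and RUNX1 KO2 (4) each against the same RUNX1 WT (4). The design text names 1 clone for CBFB KO (751) and 2 clones for RUNX1 (5008 and 5010), without saying which of them is KO1. With 1 clone for CBFB, the effect of that clone cannot be told apart from the effect of the gene. For RUNX1 the 2 clones can be compared, but each comparison with WT holds only 1 clone. All groups were grown in the same medium, which held horse serum at 5%, insulin at 10 µg/ml, EGF at 20 ng/ml, hydrocortisone at 500 ng/ml and cholera toxin at 100 ng/ml. No source used here says that the libraries of a group came from separate cultures, so the errors cover the spread between libraries, which may be technical.

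Epithelia keep microbes off their surface with secreted proteins that act in several ways. Some break bacterial membranes, some withhold iron, some tag microbes for destruction, and some restrain the proteases released by inflammatory cells. Many of these genes are switched on by NF-kappaB, C/EBP and STAT3, the factors that relay interleukin-1, interleukin-17 and interleukin-6 signals, and the same signals drive the liver's acute-phase response. In the mammary gland such proteins are secreted into milk, and several of them are markers of inflamed or involuting epithelium.

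The 3 knockouts did not move these genes as a block. SAA1 fell 7.42-fold in RUNX1 KO1 and 2.89-fold in CBFB KO, and RNASE7 rose 4.75-fold in RUNX1 KO1 and 4.11-fold in RUNX1 KO2. C3 rose in CBFB KO but fell in both RUNX1 clones, in KO2 only just passing the test. PI3 rose in CBFB KO and RUNX1 KO1, and CFB rose in RUNX1 KO2. LCN2, SLPI, DEFB1 and WFDC2 did not pass the test in any table that listed them.

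The tables give, for each gene, the mean normalized count over all libraries compared, the log2 fold change with its SE, and a p-value adjusted over all genes tested (Benjamini-Hochberg, from the authors' DESeq2 Wald test). A gene is said to have risen or fallen at an adjusted p-value under 0.05, and to be called if it also changed at least 2-fold. Since each comparison has as many KO as WT libraries, the mean and the fold change together give an approximate level for each group, in normalized counts per library. The tables hold no values of single libraries, so these levels carry no spread of their own and overlap between libraries cannot be seen. Genes with a mean of at most 0.5 had a median SE of 0.082, 0.12 and 0.18 in the CBFB KO, KO1 and KO2 tables, below the 0.29, 0.30 and 0.37 of genes with means of 5 to 20, which is the pattern of fold changes shrunk toward 0 where reads are few. Unshrunken fold changes were not analysed here, and 95% intervals are those of the values as deposited. RNA was from bulk culture, where fewer cells making a transcript and less transcript per cell cannot be told apart.

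All 10 genes were listed for RUNX1 KO1, 9 for CBFB KO (RNASE7 was missing) and 9 for RUNX1 KO2 (SLPI was missing). DEFB1 was too low in the CBFB table to have an adjusted p-value, which left 8, 10 and 9 tested in CBFB KO, KO1 and KO2. In CBFB KO 2 rose and 2 fell, against 11.7% of all tested genes that rose and 7.97% that fell, and 1 was called higher and 1 lower, against 1.72% and 1.26% of all genes. In KO1 2 rose and 3 fell (19.7% and 19.9% of all genes), with 1 called higher and 2 lower (3.36% and 1.57%). In KO2 2 rose and 1 fell (8.76% and 6.08%), with 2 called higher (3.9%) and 0 lower (1.58%). At an unadjusted p-value under 0.05 the numbers were 4, 7 and 5 genes. These counts take SAA1 and SAA2, which are much alike in sequence, as separate genes. The median log2 fold change over the tested members was 0.03, 0.39 and 0.06 in CBFB KO, KO1 and KO2, beside -0.0087, -0.0017 and 0.021 over all genes tested. The genes are described by their roles below.

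**Figure D1:**
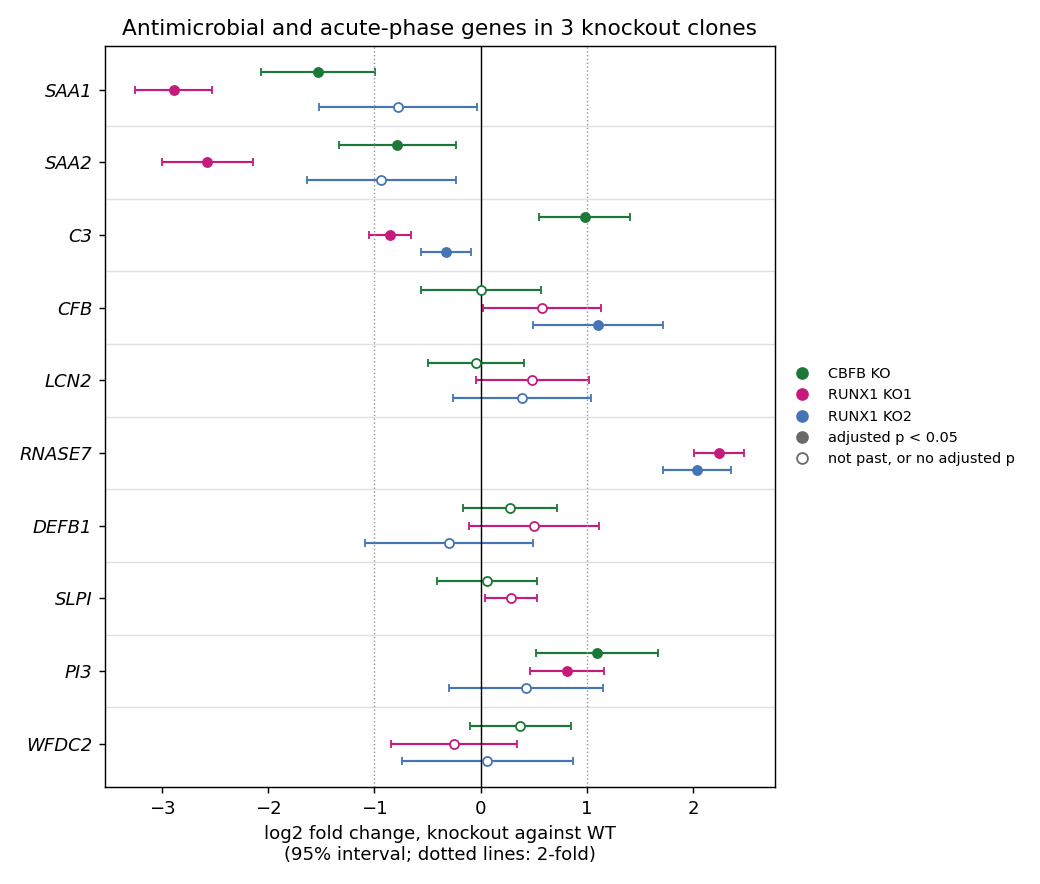
Log2 fold change of each gene in CBFB KO, RUNX1 KO1 and RUNX1 KO2 against WT (x axis), with 95% intervals. Filled points passed the adjusted threshold of 0.05, open points did not or had no adjusted p-value, and dotted lines mark a 2-fold change. SAA1 and SAA2 lie farthest to the left in KO1 (-2.89 and -2.57), RNASE7 lies near 2 in both RUNX1 clones, and C3 lies on opposite sides of 0 in CBFB KO (0.98) and KO1 (-0.85).

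Mean normalized counts summed to between 16467400 and 20214423 per library. Where a gene's mean reached 100, the SE had a median of 0.12 (log2) for CBFB KO, 0.10 for KO1 and 0.21 for KO2, so KO2 was measured less precisely than KO1. CBFB mRNA fell by 4.88 on the log2 scale (SE 0.14) in CBFB KO, as its label says. RUNX1 mRNA was higher in the RUNX1 clones (log2 fold change 0.54 in KO1 and 0.46 in KO2, adjusted p = 1.45e-08 and 0.00470), so its level does not check their labels. By immunoblot, the study reported RUNX1 deletion in RUNX1 knockout MCF10A cells and a loss of RUNX1 protein in CBFB knockout cells. Those blots were not analysed here. RUNX1 mRNA had a log2 fold change of 0.17 in CBFB KO (adjusted p = 0.390). The WT levels implied by the KO1 and KO2 tables differed by an SD of 0.034 (log2) over 10174 genes, as tables with a common WT would. The CBFB and RUNX1 experiments were normalized separately, so their levels are set side by side and not tested.

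SAA1 and SAA2 encode the acute-phase serum amyloid A proteins, small apolipoproteins that bind retinol and lipids and attract leukocytes. They are made in bulk by the liver during inflammation and in smaller amounts by epithelia. Their coding sequences are so alike that short reads can be hard to assign, so the stretch in which they differ most is shown before the values. The coding sequences of both have 366 bases, differ at 11 of them (97.0% identity) and share an unbroken identical run of 186 bases. Bases 151 to 300 of the coding sequence, counted from the start codon and lying in exons 3 and 4 of 4, hold 8 of the differences, printed in capitals. They are from GENCODE release 29 on GRCh38, SAA1 on the plus strand at chr11:18269254-18269786 and SAA2 on the minus strand at chr11:18245446-18245989, with the intron left out.
SAA1: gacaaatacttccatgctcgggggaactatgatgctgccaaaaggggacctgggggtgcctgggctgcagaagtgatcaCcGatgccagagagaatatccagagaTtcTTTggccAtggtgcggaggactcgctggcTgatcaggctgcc
SAA2: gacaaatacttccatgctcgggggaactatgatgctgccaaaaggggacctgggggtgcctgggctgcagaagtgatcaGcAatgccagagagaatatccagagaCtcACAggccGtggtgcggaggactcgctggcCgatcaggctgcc
Of all 100-base words in the longest coding transcript of SAA1, 37.2% also occur in transcripts of SAA2, and 9.43% of those of SAA2 occur in SAA1. Of the SAA2 words, 18.2% occur in the SAA2-SAA4 readthrough transcript. How the authors' counting treated such reads is not given in the sources used here, so the split between SAA1 and SAA2 is uncertain.

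SAA1 stood at about 43.9 normalized counts in CBFB WT and 15.2 in CBFB KO. In the RUNX1 experiment it stood at 260 in WT and 35.1 in KO1, and at 232 in WT and 136 in KO2 by the KO2 table. The WT level was thus several times higher in the RUNX1 experiment than in the CBFB experiment, and the KO level lay below WT in all 3 comparisons, past the threshold in 2 of them. SAA1 fell by 1.53 on the log2 scale in CBFB KO (SE 0.27, adjusted p = 7.25e-07) and by 2.89 in KO1 (SE 0.18, adjusted p = 1.77e-53). In KO2 its log2 fold change of -0.78 (95% interval -1.52 to -0.03) had an unadjusted p-value of 0.0402 and did not pass after adjustment (adjusted p = 0.177).

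SAA2 had lower counts. It stood at about 10.9 normalized counts in CBFB WT and 6.31 in CBFB KO, at 84.8 in RUNX1 WT and 14.3 in KO1, and at 78.4 and 41.0 by the KO2 table. It fell 1.72-fold in CBFB KO (log2 fold change -0.78, SE 0.28, adjusted p = 0.0321), which is under the 2-fold threshold, and 5.95-fold in KO1 (-2.57, SE 0.22, adjusted p = 7.24e-30). Its log2 fold change in KO2 was -0.94 (95% interval -1.63 to -0.24, adjusted p = 0.0565). SAA4, the constitutive member of the family, shares exons with the readthrough transcript and was looked at after these values were seen. For KO1 its mean was only 1.40 normalized counts and its log2 fold change -0.66 (adjusted p = 0.0264), and for KO2 they were 1.32 and -1.05 (adjusted p = 0.0428).

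Among the members, the response of SAA1 differed most between the RUNX1 clones. The difference of its log2 fold changes, KO1 minus KO2, was -2.11 (95% interval -2.94 to -1.29, adjusted p = 7.80e-04), and it was among the 0.141% of all 15562 genes tested for which the clones differed past the threshold. This test added the SEs of both fold changes although their WT libraries are shared, which by itself makes it conservative. The SEs cover only the spread between libraries, which may be technical, and the part of shrinkage in the difference was not tested. For SAA2 the difference was -1.64 (95% interval -2.46 to -0.82), with an adjusted p-value of 0.0600. CBFB KO was less affected than KO1, with a difference of 1.36 for SAA1 (95% interval 0.71 to 2.01, adjusted p = 0.00178) and 1.79 for SAA2 (1.09 to 2.49, adjusted p = 5.21e-05). Against KO2 the difference of CBFB KO was -0.75 for SAA1 (95% interval -1.67 to 0.16, adjusted p = 0.731) and 0.15 for SAA2 (-0.74 to 1.04, adjusted p = 0.999).

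Other acute-phase genes did not share one direction. Of 20 further acute-phase genes, 7 were tested for CBFB KO, 12 for KO1 and 10 for KO2. In CBFB KO 1 rose and 1 fell, in KO1 2 rose and 2 fell, and in KO2 3 rose and 2 fell, with medians of 0.20, -0.017 and -0.091. The counts of this and of each further list stand beside the shares of all tested genes that rose (11.7%, 19.7% and 8.76% in CBFB KO, KO1 and KO2) and fell (7.97%, 19.9% and 6.08%). All lists were chosen with earlier results of these data known. SERPINA1, which encodes the elastase inhibitor alpha-1 antitrypsin, fell in all 3 knockouts by 2.72, 2.62 and 2.50 on the log2 scale (SE 0.27, 0.20 and 0.22; adjusted p = 2.27e-21, 1.61e-36 and 2.18e-27). SERPINA3, which encodes alpha-1 antichymotrypsin, rose by a log2 fold change of 2.52 in KO1 (SE 0.11, adjusted p = 9.92e-109) and 2.12 in KO2 (SE 0.22, adjusted p = 9.67e-21). In CBFB KO its value was 0.35 (adjusted p = 0.367). LRG1, a secreted leucine-rich glycoprotein induced in inflammation, rose in all 3, with log2 fold changes of 1.12, 1.19 and 0.78 (adjusted p = 1.47e-05, 5.08e-15 and 0.0153), and its KO2 value no longer passed (0.64, adjusted p = 0.0656) after correction for length and GC, that is, with the dependence of all fold changes on the length and GC content of transcripts removed.

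C3 is the central protein of complement, cleaved so that one fragment binds covalently to microbes. CFB is the protease precursor that joins bound C3 to form the C3 convertase of the alternative pathway. C3 was among the best measured of the 10 genes. It stood at about 391 normalized counts in CBFB WT and 770 in CBFB KO, at 552 in RUNX1 WT and 306 in KO1, and at 524 and 419 by the KO2 table. It rose 1.97-fold in CBFB KO, just under the threshold for a call (log2 fold change 0.98, SE 0.22, adjusted p = 1.40e-04), and fell in KO1 by 0.85 on the log2 scale (SE 0.10, adjusted p = 5.61e-16). In KO2 it fell by 0.32 (SE 0.12, adjusted p = 0.0441), a value that lay just past the threshold and had an adjusted p-value of 0.0510 when every listed gene was counted in the adjustment.

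C3 was the only member whose response in CBFB KO differed past the threshold from that in both RUNX1 clones. CBFB KO exceeded KO1 by 1.83 on the log2 scale (95% interval 1.36 to 2.30, adjusted p = 1.12e-11) and KO2 by 1.30 (95% interval 0.81 to 1.79, adjusted p = 3.03e-05). Over all genes, 9.84% of the 14940 tested differed past the threshold in the first of these comparisons and 2.9% of 14503 in the second. Among the members 3 of 8 tested differed in the first comparison (SAA1, SAA2 and C3) and 1 of 7 in the second (C3). SAA1 and SAA2 are so alike in sequence that they may not be independent in this count. These comparisons set a CBFB clone with its WT against a RUNX1 clone with another WT, so the knocked-out gene and the experiment cannot be told apart. The difference of C3 between KO1 and KO2 was -0.53 (95% interval -0.83 to -0.22, adjusted p = 0.227), and 1 of 9 members tested (SAA1) differed between those clones.

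CFB was scarcer, at about 8.13 normalized counts in CBFB WT and 8.15 in CBFB KO, 15.5 in RUNX1 WT and 23.1 in KO1, and 15.1 and 32.4 by the KO2 table. It rose 2.15-fold in KO2 (log2 fold change 1.10, SE 0.31, adjusted p = 0.00479). In KO1 its log2 fold change was 0.58 (95% interval 0.03 to 1.13, adjusted p = 0.0909) and in CBFB KO 0.0033 (-0.57 to 0.57, adjusted p = 0.996). The difference between CBFB KO and KO2 was -1.10 with an unadjusted p-value of 0.00991, and did not pass after adjustment (adjusted p = 0.209). In GENCODE release 29 the overlapping gene model AL645922.1 holds 77.9% of the 100-base words of CFB, so reads of CFB may have been split or discarded if the authors' annotation held such a model. C3 and CFB, which act together in the convertase, moved in opposite directions in KO2, where the fall of C3 only just passed (adjusted p = 0.0441).

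**Figure D2:**
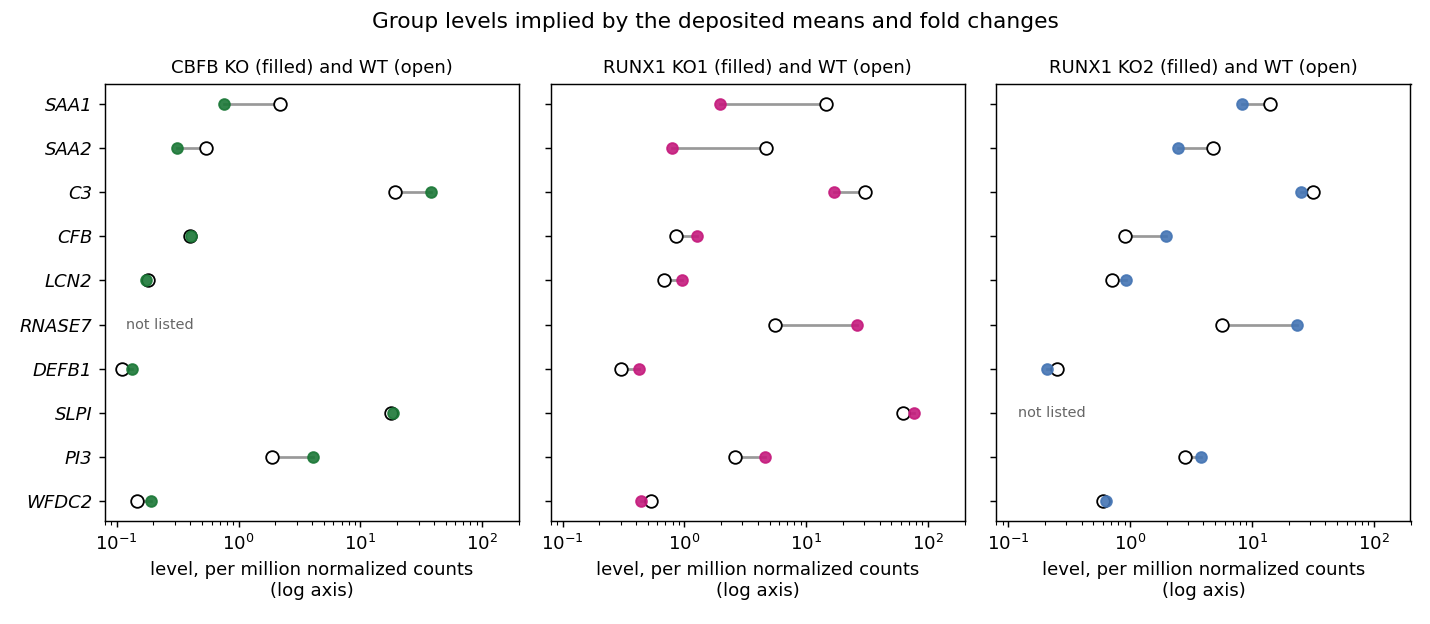
Approximate level of each gene in WT (open) and KO (filled) libraries for each of the 3 tables, per 1000000 normalized counts on a log axis. The levels come from the deposited mean and fold change, so they have no error bars, and the CBFB and RUNX1 experiments were normalized separately. SAA1 goes from 14.4 to 1.94 in KO1, RNASE7 from 5.50 to 26.1 in KO1, and C3 from 19.3 to 38.1 in CBFB KO.

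The other complement genes were tested as a list of 31, of which 16 had an adjusted p-value for CBFB KO, 23 for KO1 and 21 for KO2. In CBFB KO 2 rose and 4 fell, in KO1 4 rose and 7 fell, and in KO2 2 rose and 4 fell, with median log2 fold changes of -0.13, -0.083 and -0.051. CFI, which encodes factor I, the protease that inactivates C3b, fell in KO1 by 2.23 (adjusted p = 2.46e-11) and in KO2 by 2.14 (adjusted p = 9.33e-07) at a mean near 10 in both tables. In CBFB KO its mean of 1.90 was too low to test.

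SERPING1, which encodes the C1 inhibitor that restrains the classical and lectin pathways, went the other way. Its log2 fold change was 1.96 in KO1 (SE 0.30, adjusted p = 1.69e-09) and 2.77 in KO2 (SE 0.36, adjusted p = 1.69e-12), while its mean in the CBFB table was 1.15 and could not be tested. CR2, a receptor for fragments of C3, fell by 0.97 in KO1 (adjusted p = 5.70e-04) and by 1.10 in KO2 (adjusted p = 0.00329), and had -0.59 in CBFB KO (adjusted p = 0.149). The membrane inhibitors CD55 and CD59, chosen after their values were seen, are far more abundant. CD59, which blocks the membrane attack complex, rose in all 3 (log2 fold changes 0.76, 0.70 and 0.81), and CD55, which dissociates the C3 convertase, fell in all 3 (-0.31, -0.55 and -0.47), the KO2 value of CD55 not passing after correction for length and GC (-0.36, adjusted p = 0.115).

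**Figure D3:**
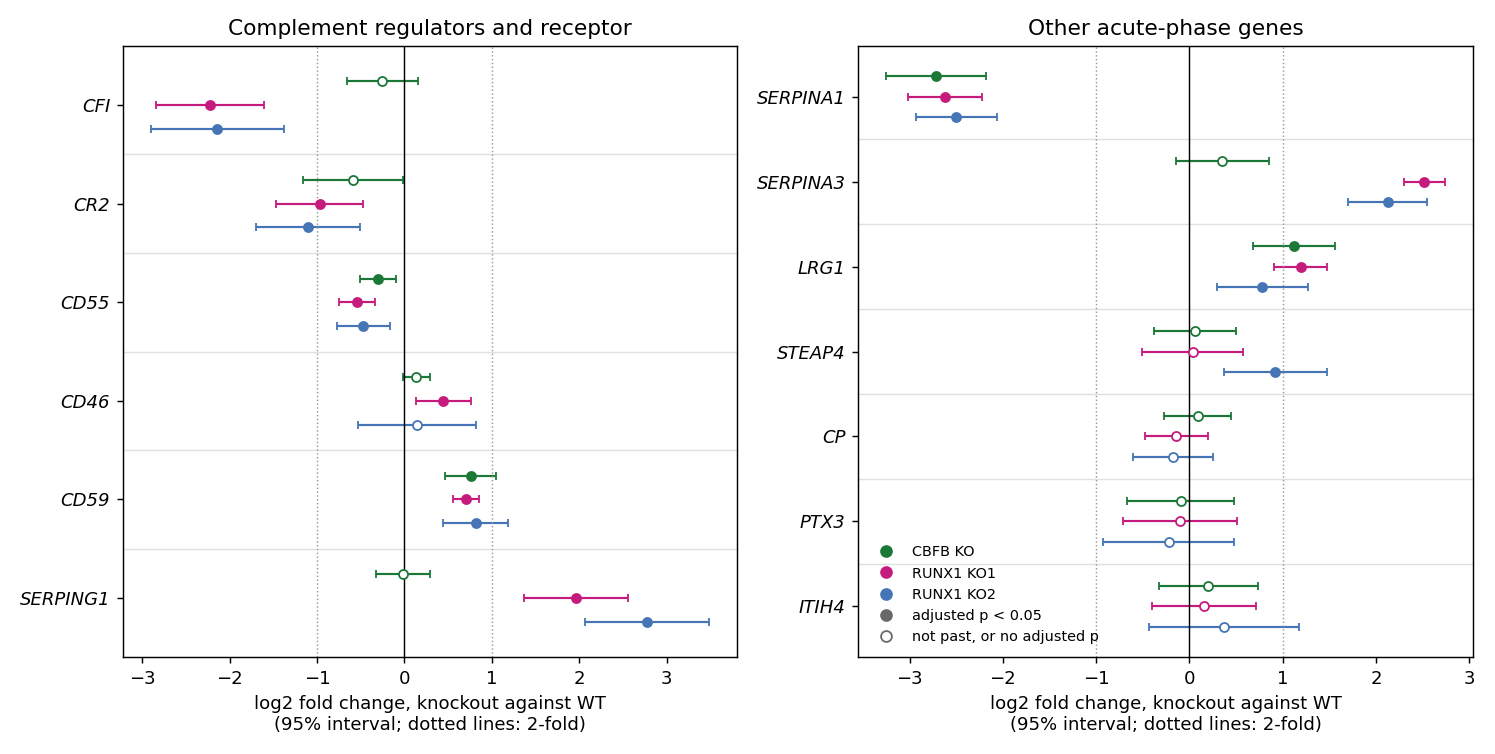
Log2 fold changes with 95% intervals for complement regulators and a receptor (left) and for acute-phase genes other than the members (right). Filled points passed the adjusted threshold of 0.05. SERPINA1 lies at -2.72, -2.62 and -2.50 in CBFB KO, KO1 and KO2, while SERPINA3 (2.52 and 2.12) and SERPING1 (1.96 and 2.77) lie to the right in KO1 and KO2.

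RNASE7, DEFB1 and LCN2 act on microbes directly. RNASE7 encodes a strongly cationic ribonuclease of skin and other epithelia that disrupts bacterial membranes, DEFB1 encodes human beta-defensin 1, a small cationic peptide that many epithelia make constitutively, and LCN2 encodes lipocalin 2, which binds bacterial siderophores and so withholds iron. RefSeq promoter sequences were at hand for 4 of the 10 genes (RNASE7, CFB, LCN2 and WFDC2, build GRCh38.p14). The 250 bases before the start site are shown for RNASE7 and CFB, which were called higher, and for LCN2, which is a well known NF-kappaB target and did not pass. All are on the plus strand, at chr14:21042112-21042361, chr6:31945845-31946094 and chr9:128149203-128149452. Capitals mark matches to the motifs listed after the sequences.
RNASE7: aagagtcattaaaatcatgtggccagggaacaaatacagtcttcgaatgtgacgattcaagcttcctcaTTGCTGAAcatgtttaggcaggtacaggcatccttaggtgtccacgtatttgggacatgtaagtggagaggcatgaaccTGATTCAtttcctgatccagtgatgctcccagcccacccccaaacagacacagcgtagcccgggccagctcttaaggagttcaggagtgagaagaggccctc
CFB: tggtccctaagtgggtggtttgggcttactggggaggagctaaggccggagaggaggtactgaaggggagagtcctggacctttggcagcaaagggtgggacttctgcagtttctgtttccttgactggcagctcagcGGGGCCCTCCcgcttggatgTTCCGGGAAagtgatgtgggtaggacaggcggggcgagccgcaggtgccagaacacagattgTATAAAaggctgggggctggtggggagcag
LCN2: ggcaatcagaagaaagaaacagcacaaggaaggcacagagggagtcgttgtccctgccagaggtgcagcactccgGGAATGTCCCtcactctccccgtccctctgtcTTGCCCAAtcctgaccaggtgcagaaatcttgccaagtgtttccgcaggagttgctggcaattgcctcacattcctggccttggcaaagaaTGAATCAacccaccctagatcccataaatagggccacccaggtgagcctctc
The motifs, searched on both strands, were RUNX (TGTGGT or TGCGGT), C/EBP (TTNNGNAA), STAT (TTCNNNGAA), AP-1 (TGANTCA), the TATA box (letters TATAAA) and the NF-kappaB consensus. None of their matches in these promoters overlap. RNASE7 held a C/EBP match 181 to 174 bases and an AP-1 match 102 to 96 bases before the start site. CFB held NF-kappaB (112 to 103 bases before), STAT (92 to 84) and TATA (30 to 25) matches. LCN2 held NF-kappaB (175 to 166), C/EBP (143 to 136) and AP-1 (52 to 46) matches, and WFDC2 held 1 C/EBP match. None of the 4 windows held the RUNX letters, which 16.3% of all 35116 promoter windows of this length hold. The shares for the other motifs were 33.2% for C/EBP, 6.57% for STAT, 6.57% for AP-1, 10.7% for TATA and 9.96% for NF-kappaB. A match is a description of letters, and its absence here says nothing about sites elsewhere.

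RNASE7 rose more than any other member. It stood at about 99.3 normalized counts in RUNX1 WT and 472 in KO1, and at 93.9 and 386 by the KO2 table. Both clones lay about 4-fold or more above WT, and the log2 fold changes were 2.25 in KO1 (SE 0.12, 95% interval 2.01 to 2.48, adjusted p = 4.81e-75) and 2.04 in KO2 (SE 0.16, 1.72 to 2.36, adjusted p = 3.09e-33). The difference between the clones was 0.21 (95% interval -0.19 to 0.61, adjusted p = 0.912), which leaves a difference of up to about 1.5-fold within the interval. Its level in CBFB KO is not known, since the CBFB table did not list it. Per kilobase of the longest coding transcript and per 1000000 normalized counts, RNASE7 went from 3.67 in WT to 17.4 in KO1 and from 3.81 to 15.7 by the KO2 table. That moved it from place 6 to place 2 of the 10 genes in KO1, behind SLPI. In KO2, where SLPI was not listed, RNASE7 moved from place 5 to the first place among the 9 listed. The order has no test, as no spread over libraries is known.

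DEFB1 was barely expressed, with means of 2.46, 6.58 and 3.79 normalized counts in the CBFB, KO1 and KO2 tables. Its log2 fold changes of 0.28 (no adjusted p-value), 0.50 (adjusted p = 0.204) and -0.30 (adjusted p = 0.763) had intervals reaching from -1.09 to 1.11 over the tables, so a 2-fold rise in KO1 and a 2-fold fall in KO2 lie within them. LCN2 was low as well. It stood at about 3.62 normalized counts in CBFB WT and 3.52 in CBFB KO, 12.3 in RUNX1 WT and 17.3 in KO1, and 11.6 and 15.2 by the KO2 table. Its log2 fold change was -0.04 (95% interval -0.49 to 0.41, adjusted p = 0.928), 0.49 (-0.04 to 1.02, adjusted p = 0.145) and 0.39 (-0.26 to 1.04, adjusted p = 0.558). In KO1 both LCN2 (0.74, adjusted p = 0.0194) and DEFB1 (0.83, adjusted p = 0.0235) passed after correction for length and GC.

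SLPI, PI3 and WFDC2 encode proteins with the whey acidic protein fold, and their genes lie in a cluster on chromosome 20. SLPI and PI3 (elafin) inhibit neutrophil elastase and also have antimicrobial activity, and WFDC2 (HE4) is a secreted protein of glandular epithelia used as a tumor marker. PI3 stood at about 38.3 normalized counts in CBFB WT and 81.9 in CBFB KO, 47.3 in RUNX1 WT and 83.2 in KO1, and 46.8 and 63.1 by the KO2 table. The KO level lay above WT in all 3 comparisons, past the threshold in 2 of them. It rose 2.14-fold in CBFB KO (log2 fold change 1.10, SE 0.29, adjusted p = 0.00195) and 1.76-fold in KO1 (0.81, SE 0.18, adjusted p = 2.63e-05). In KO2 its log2 fold change of 0.43 (95% interval -0.30 to 1.16) had an adjusted p-value of 0.562. No pair of clones differed past the threshold for PI3, with differences of 0.28 (95% interval -0.39 to 0.95) between CBFB KO and KO1, 0.67 (-0.26 to 1.59) between CBFB KO and KO2 and 0.38 (-0.42 to 1.19) between KO1 and KO2.

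Per kilobase and per 1000000 normalized counts, SLPI was the most abundant member in the CBFB and KO1 tables, at 30.0 in CBFB WT and 105 in RUNX1 WT on the same scale. It stood at about 361 normalized counts in CBFB WT and 376 in CBFB KO, and at 1133 in RUNX1 WT and 1382 in KO1. Its log2 fold change was 0.06 in CBFB KO (95% interval -0.41 to 0.53, adjusted p = 0.907), so a rise past about 1.44-fold lies outside the interval. In KO1 it was 0.29 (95% interval 0.04 to 0.53) with an unadjusted p-value of 0.0215 and an adjusted one of 0.0536. This value sat at the edge of the threshold and passed under 3 of 4 other ways of scaling or adjusting. WFDC2 had means of 3.41, 8.76 and 10.1 normalized counts. Its log2 fold changes were 0.37 for CBFB KO, -0.25 for KO1 and 0.06 for KO2 (adjusted p = 0.300, 0.555 and 0.960), whose intervals all held 0.

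Few other genes of this inhibitor family were measured. Of 18 listed as relatives of the cluster, including Kunitz inhibitors that lie elsewhere, 2 were tested for CBFB KO and 3 for each RUNX1 clone, and 2, 1 and 1 of them rose. SPINT1, a Kunitz inhibitor of the hepatocyte growth factor activator chosen after its values were seen, rose in all 3 tables with log2 fold changes of 0.71, 0.43 and 0.63 (adjusted p = 4.03e-08, 3.71e-06 and 0.0361), and SPINT2 rose in CBFB KO (0.64, adjusted p = 9.87e-13). Neither is on the same chromosome as SLPI and PI3, and the WFDC genes of the cluster that were listed had means under 2 normalized counts.

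**Figure D4:**
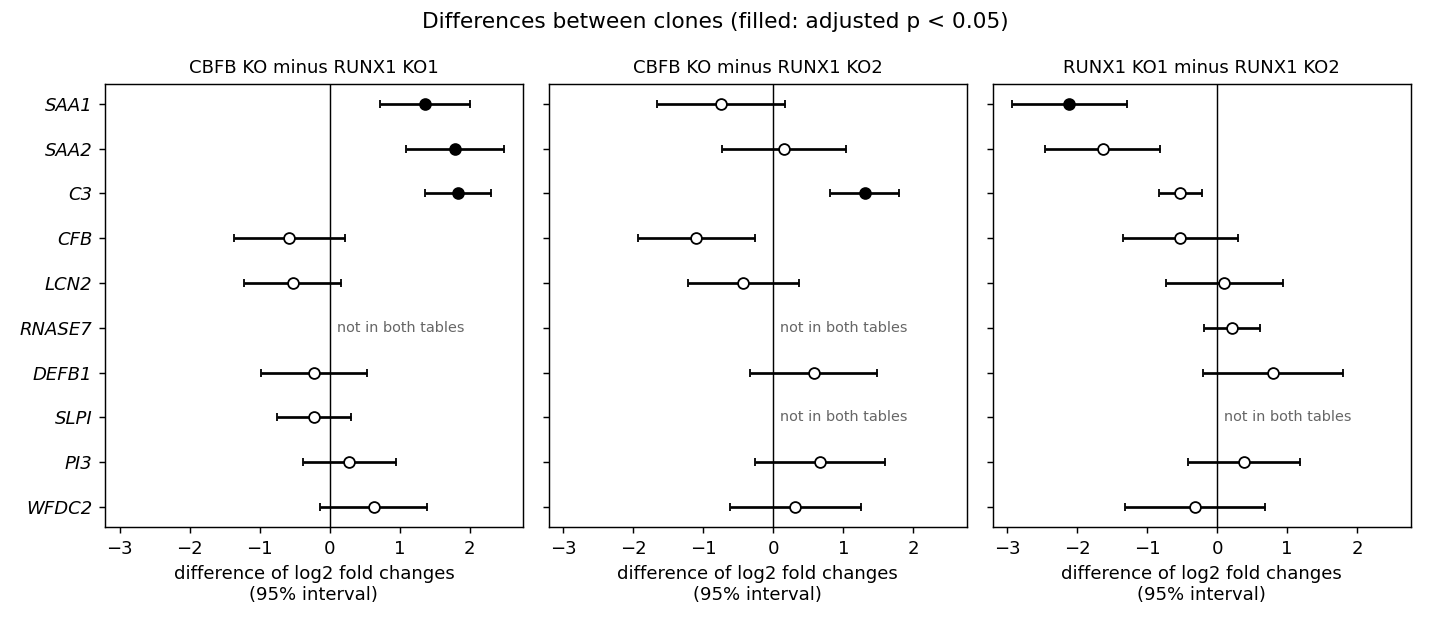
Difference of the log2 fold change of each gene between clones (x axis), with 95% intervals from the combined SEs. Filled points passed the adjusted threshold of 0.05 over all genes, and DEFB1 had no adjusted p-value in the first and second panels. SAA1 (1.36), SAA2 (1.79) and C3 (1.83) passed in the comparison of CBFB KO with KO1, C3 (1.30) in that with KO2, and SAA1 (-2.11) in that of KO1 with KO2.

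Further antimicrobial genes gave the setting. Of 33, 12 were tested for CBFB KO, 16 for KO1 and 15 for KO2. In KO1 6 rose and 2 fell, while in CBFB KO and in KO2 1 rose and 1 fell, and the median log2 fold changes were 0.11, 0.36 and 0.27 for CBFB KO, KO1 and KO2. S100A8 and S100A9 encode the subunits of calprotectin, which withholds zinc and manganese. S100A9 rose in CBFB KO (log2 fold change 1.34, SE 0.26, adjusted p = 5.67e-06) and in KO1 (1.64, SE 0.11, adjusted p = 1.40e-45), and the KO2 table did not list it. S100A8 rose in KO1 (1.41, SE 0.23, adjusted p = 1.16e-08) and had 0.32 in CBFB KO (adjusted p = 0.351) and 0.48 in KO2 (adjusted p = 0.538). MUC1, a membrane mucin of glandular epithelia, fell in all 3, by 0.56, 1.74 and 1.14 on the log2 scale (adjusted p = 0.0315, 3.54e-38 and 6.33e-06).

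Partners of these products were measured too. Of 17 receptors, proteases and cross-linking enzymes, 7 were tested in CBFB KO and 0 passed (0 at an unadjusted p-value under 0.05), while 9 were tested in each RUNX1 clone and 3 rose and 3 fell in each. MMP9, a gelatinase that forms a complex with lipocalin 2, rose by log2 fold changes of 4.92 in KO1 (SE 0.18, adjusted p = 3.99e-164) and 4.46 in KO2 (SE 0.30, adjusted p = 1.08e-47) and was not listed for CBFB KO. KLK5, a trypsin-like kallikrein of keratinizing epithelia, rose in KO1 (0.98, adjusted p = 2.10e-27) and KO2 (1.49, adjusted p = 2.80e-08). KLK7, a chymotrypsin-like kallikrein, fell in both, by 1.28 (adjusted p = 2.83e-15) and 0.77 (adjusted p = 0.00442). TGM1, a transglutaminase of the kind that cross-links elafin into the epithelial envelope, rose in KO2 (1.08, adjusted p = 9.45e-10) and had 0.13 in KO1 (adjusted p = 0.341). The CBFB table gave KLK5, KLK7 and TGM1 values of -0.08, -0.19 and -0.27, none past the threshold.

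The regulators upstream of these genes were examined as lists of receptors with their signal proteins (27) and of transcription factors (22). Among the receptors and signal proteins, 8 of 25 tested rose and 0 fell in CBFB KO (11 at an unadjusted p-value under 0.05), 15 of 26 rose and 1 fell in KO1, and 4 of 26 rose and 0 fell in KO2 (10 unadjusted). Over all genes tested 11.7%, 19.7% and 8.76% rose and 7.97%, 19.9% and 6.08% fell, with medians of -0.0087, -0.0017 and 0.021. The median log2 fold changes of the list were 0.29, 0.37 and 0.17, and no gene of it changed 2-fold. MYD88, the adaptor of interleukin-1 and Toll-like receptors, rose in all 3 by log2 fold changes of 0.75, 0.86 and 0.62 (adjusted p = 1.84e-05, 2.48e-09 and 0.0432). IL22RA1, a subunit of the interleukin-22 receptor of epithelia, did so by 0.87, 0.96 and 0.98 (adjusted p = 1.30e-04, 1.75e-07 and 1.62e-06). Both were chosen after their values were seen.

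Among the transcription factors, 7 of 20 tested rose and 3 fell in CBFB KO, 8 rose and 3 fell in KO1, and 2 rose and 0 fell in KO2, with medians of 0.24, 0.11 and 0.16. NFKBIZ, which encodes IkappaB-zeta, a cofactor that NF-kappaB needs at genes such as LCN2, rose in CBFB KO (log2 fold change 0.93, SE 0.17, adjusted p = 6.72e-07) and KO1 (1.34, SE 0.20, adjusted p = 3.57e-10). In KO2 its value of 0.87 (SE 0.33) had an adjusted p-value of 0.0610 and just passed after correction for length and GC (0.90, adjusted p = 0.0498). RELB, a subunit of non-canonical NF-kappaB, rose in KO1 (1.12, adjusted p = 9.61e-18) and KO2 (0.99, adjusted p = 0.00512, or 0.0631 after correction for length and GC) and had 0.71 in CBFB KO (adjusted p = 0.0692). The canonical subunits moved less. RELA rose in CBFB KO (0.36, SE 0.13, adjusted p = 0.0365) and by 0.21 in KO1 (adjusted p = 0.0314), NFKB1 rose in CBFB KO (0.27, adjusted p = 0.0276), and none of these values passed after correction for length and GC. STAT3 rose by 0.38 in CBFB KO (adjusted p = 0.0113) and by 0.38 in KO1 (adjusted p = 3.68e-06).

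The C/EBP factors, classical activators of acute-phase genes, differed between paralogs. CEBPB fell in CBFB KO by 0.82 on the log2 scale (SE 0.11, adjusted p = 1.29e-11) and in KO1 by 1.01 (SE 0.10, adjusted p = 8.88e-22). In KO2 its value of -0.68 (SE 0.27) had an adjusted p-value of 0.0651 and passed after correction for length and GC (-0.94, adjusted p = 0.00461). CEBPD rose in CBFB KO (0.67, SE 0.17, adjusted p = 6.48e-04), and had 0.08 in KO1 (adjusted p = 0.601) and a value of 0.52 in KO2 (adjusted p = 0.286). Whether the level of any of these factors bears on SAA1, C3 or RNASE7 was not tested.

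**Figure D5:**
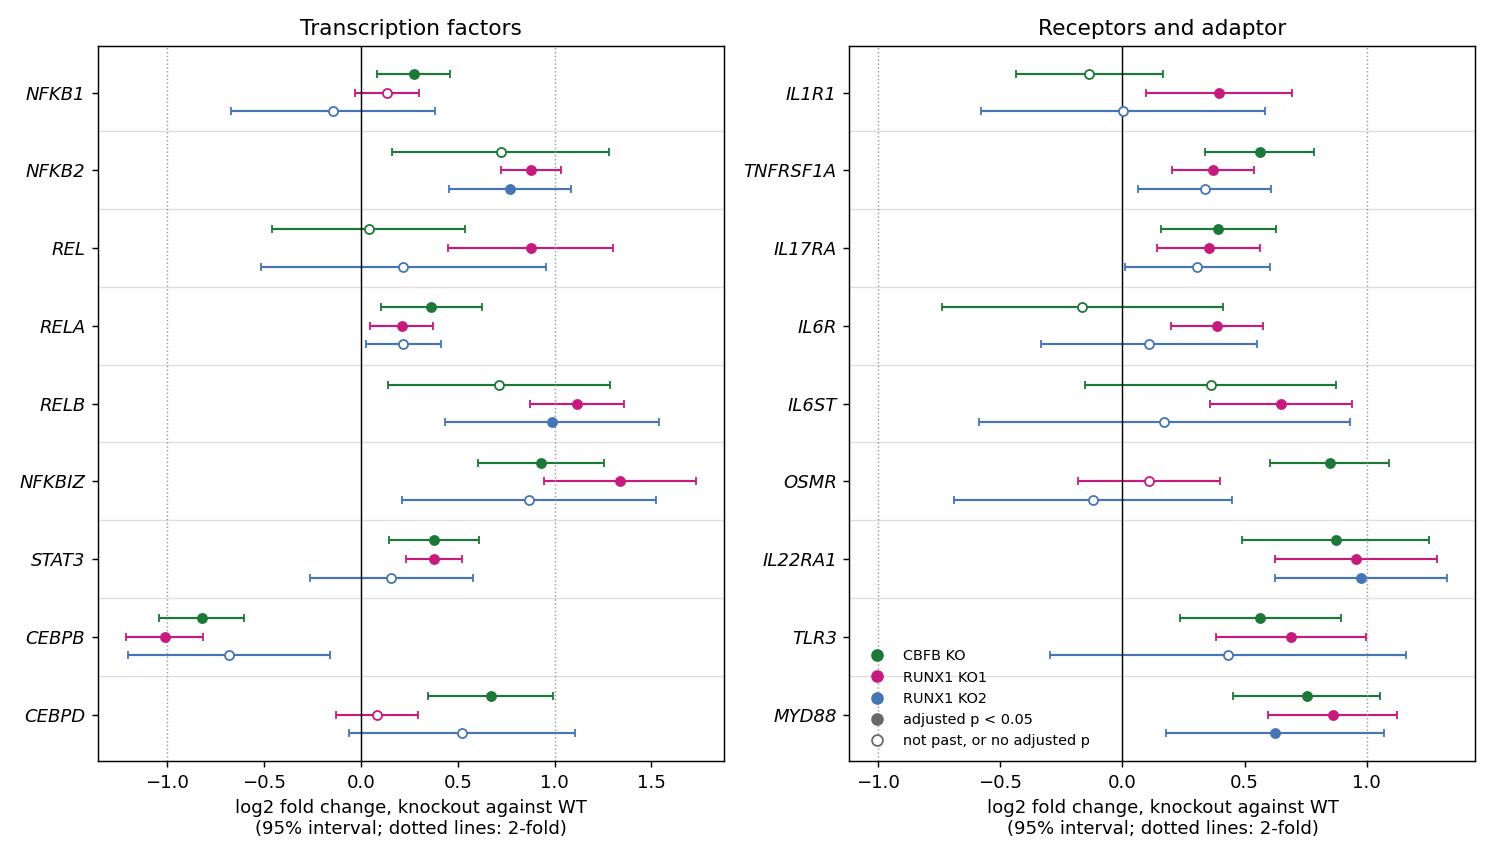
Log2 fold changes with 95% intervals for transcription factors (left) and for receptors and the adaptor MYD88 (right) upstream of the antimicrobial genes in CBFB KO, RUNX1 KO1 and RUNX1 KO2. Filled points passed the adjusted threshold of 0.05. CEBPB lies below 0 in all 3 tables (-0.82, -1.01 and -0.68, the last not past the threshold) and NFKBIZ above it (0.93, 1.34 and 0.87, the last not past the threshold).

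The label of a mammary epithelial line was checked against markers. Keratin genes of basal epithelium were high, KRT5 with means of 87894 to 101688 normalized counts over the tables, and all 10 epithelial markers were listed in the CBFB and KO1 tables. Of them 5 rose and 1 fell in CBFB KO, 7 rose and 1 fell in KO1, and 3 rose and 0 fell in KO2. KRT14, a basal keratin, rose by log2 fold changes of 2.97 in CBFB KO and 2.95 in KO1 and was not listed for KO2, KRT17 rose by 0.57, 0.69 and 1.27 in the 3 tables, and TP63, a basal transcription factor, by 0.76 in CBFB KO and 1.08 in KO1. In KO2 TP63 had 0.55 (adjusted p = 0.227). Since acute-phase proteins are classical products of liver and blood cells, markers of those were read as well. Of 5 hepatocyte markers, 2 were listed in each table with summed means of 0.300, 1.13 and 0.446 normalized counts, and ALB had a mean of 0.145 in the CBFB table and was not listed in the others. Of 8 leukocyte markers, 5, 4 and 4 were listed, with summed means of 479, 359 and 339 that lay almost wholly in CD14, CD68 and MPO, while the pan-leukocyte gene PTPRC had a mean of 0.463 in the CBFB table and was not listed in the others. MPO rose in KO1 (log2 fold change 1.27, adjusted p = 9.81e-08) and KO2 (0.84, adjusted p = 0.0401, or 0.145 after correction for length and GC). CD68 rose by 0.69 in CBFB KO (adjusted p = 0.0286) and by 0.52 in KO1 (adjusted p = 2.93e-04). Of 6 fibroblast markers, COL1A1 rose in all 3 tables (1.40, 1.75 and 1.36) and DCN fell in all 3 (-1.06, -1.80 and -1.61) at means of 6.66 to 7.34, with summed means of 928, 869 and 712 over the list. The part of these markers in the results above was not tested.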

How the data were processed

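Per the labels, reads were trimmed with Trimmomatic, aligned to hg19 with STAR and compared with DESeq2 (no versions named), and the counter and annotation are not given in the sources used here. An mRNA kit is named in the labels but ribosomal RNA depletion in the methods, so which was used is not known. The deposited tables hold the authors' own comparison of each knockout with WT: the mean signal (normalized count), log2 fold change, its SE, the test score, the p-value and the adjusted p-value, and 0 columns of values per sample. Genes without an adjusted p-value were not counted as tested, which left 14975, 16394 and 15636 genes for CBFB KO, KO1 and KO2. Genes were joined by Entrez ID. From these values, group levels, 95% intervals (normal) and differences between tables were computed. A difference was divided by the combined SE, tested two-sided against the normal distribution and adjusted by Benjamini-Hochberg over all genes tested in both tables, in Python 3.11.15 with scipy 1.17.1.

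The members and all gene lists were chosen with earlier results of these data known. From each other list, genes called in at least 1 table at a mean of at least 10 were named, at most 6 per list by size of change, with NFKB1, RELA, NFKBIZ, STAT3, CEBPB and CEBPD always named. Some genes that this rule named are not reported here, though the counts over their lists hold them. Some other genes are said in the text to be chosen after their values were seen, and the plotted pathway genes include some of them. SPINT2 and the markers KRT5, CD14, CD68, DCN, ALB and PTPRC were also named outside the rule. Alternatives were other fold-change thresholds, other sets for the adjustment, centring on the median of genes whose mean reached 100, and removal of a trend on transcript length and GC content (longest transcript, GENCODE release 29, known for at least 98.9% of those genes). Gene coordinates were not taken from the authors' build. Printed sequences are those of the reference.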

Additional observations from a re-analysis of the deposited data

Results flagged for a closer look

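Responses that differed between clones, by the test of the difference of log2 fold changes with Benjamini-Hochberg adjustment over all genes, are gathered here with their values. SAA1 fell less in CBFB KO than in RUNX1 KO1 (difference 1.36, SE 0.33, adjusted p = 0.00178), and so did SAA2 (difference 1.79, SE 0.36, adjusted p = 5.21e-05). Counts of both genes were lower in the CBFB experiment, and the part of shrinkage in these differences was not tested. C3 rose in CBFB KO and fell in both RUNX1 clones, with a difference of 1.83 from KO1 (SE 0.24, adjusted p = 1.12e-11) and of 1.30 from KO2 (SE 0.25, adjusted p = 3.03e-05). Its own fall in KO2 was small (log2 fold change -0.32) and lay just past the threshold (adjusted p = 0.0441, or 0.0510 when adjusted over every listed gene). SAA1 fell in KO1 well beyond its value in KO2 (difference -2.11, SE 0.42, adjusted p = 7.80e-04). Both clones are labelled as RUNX1 knockouts and are set against the same WT libraries. The CBFB and RUNX1 comparisons come from separate experiments with their own WT, so the part of the experiment in the first 4 differences cannot be told apart from that of the gene.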

How the results depend on the processing

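Of 91 values of a member's fold change under another adjustment or scaling, 82 kept their direction and side of the threshold, 5 newly passed (SLPI in KO1 under 3 alternatives, LCN2 and DEFB1 in KO1 under 1), 1 no longer passed (C3 in KO2) and 3 changed sign. Of 54 values of differences, 52 were unchanged in this sense and 2 changed sign. Alternatives that changed only the adjustment left the log2 values as they were, so only centring or removal of the trend could change a sign. The sign changes came with removal of the trend on length and GC content and concerned values near 0: WFDC2 in KO1 (0.053) and KO2 (-0.055), CFB in CBFB KO (-0.080), and the differences of PI3 between CBFB KO and KO1 (-0.014) and of WFDC2 between KO1 and KO2 (0.11). The 2 members called in CBFB KO became 4 without a fold-change threshold or at 1.5, 0 at 4, and 0 (of the 2 still tested) with adjustment over genes with a mean of at least 100. The 3 called in KO1 became 5 without a threshold, 5 at 1.5, 5 with the trend removed, and 2 with adjustment over genes with a mean of at least 100, where SAA2 was not tested. The 2 called in KO2 became 3 without a threshold, 1 at a threshold of 4 and 1 with adjustment over genes with a mean of at least 100. Under that adjustment 1 member in place of 3 differed between CBFB KO and KO1, as only 2 could be tested. Over all genes, 446, 809 and 857 were called in CBFB KO, KO1 and KO2, against 2943, 6481 and 2319 without a threshold, 1271, 2289 and 1539 at 1.5, 70, 155 and 145 at 4, and 244, 344 and 288 with adjustment over genes with a mean of at least 100. No paired analysis was possible because the tables hold no values per sample, and leaving out a library was not run for the same reason. Few reads limit the precision of LCN2, DEFB1, WFDC2, SAA2 and CFB, and how far their fold changes were shrunk was not tested.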
